A study of Mus musculus with 4 samples.

Results

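*Col25a1* is a long neighbour of *Lef1* on its centromeric side, and its contacts with the *Lef1* promoter and with the enhancer Leaf were read from 4C-Seq libraries of mouse tissue. In the GENCODE M21 annotation of mm10 (GRCm38), *Col25a1* (ENSMUSG00000058897.17) lies on the plus strand of chromosome 3 from 130131501 to 130599877, a length of 468.377 kb. Its members are the 516 scored restriction fragments whose midpoint falls in this interval, of 2350945 scored fragments in the whole series and 137330 on chromosome 3. The rule used position only and no measured value.

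The study collected cells of whisker pads at E12.5 and of adult kidney from mice of the outbred OF1 strain with no treatment named, and used each tissue with the *Lef1* promoter and with Leaf as viewpoints. *Lef1* encodes a transcription factor of the Wnt pathway that is needed for whisker follicles to begin, and kidney served as the negative control. Each of the 4 groups was 1 library of pooled whole tissue, with 120 embryonic whisker pads collected, so that no value has a replicate check and any difference between tissues compares 2 libraries. The methods name both E12.5 and E13 for the collection, whereas the sample labels name E12.5. No marker of whisker pad or kidney could be examined, as 4C-Seq gives no expression.

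In 4C-Seq, chromatin is crosslinked, cut and ligated, so that fragments close to the viewpoint in the nucleus are joined to it and can be sequenced with it. Contact frequency usually falls steeply with distance along the chromosome, and it can fall in a step where a topologically associating domain ends. *Col25a1* encodes collagen type XXV, a membrane-spanning collagen made mainly by neurons, which is needed for motor axons to innervate muscle and whose shed form was found in amyloid plaques.

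The end of *Col25a1* that is nearer to *Lef1* is its telomeric end, where the gene stops. It lay 508.886 kb from the middle of the *Lef1* promoter viewpoint (131108763) and 419.663 kb from the middle of the Leaf viewpoint (131019540), and the far end lay 977.262 and 888.039 kb away. Between *Col25a1* and the start of *Lef1* there are 510.593 kb. Of 6 annotated transcripts, 2 are protein-coding and both begin deep on the far side, the first at 130180891, which is 927.872 kb from the promoter viewpoint and 838.649 kb from Leaf.

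The fragments that could be read in *Col25a1* depend on the enzymes. NlaIII, the primary cutter, recognises CATG, and DpnII, the secondary cutter, recognises GATC. In the reference, 137330 of 137330 scored fragments of chromosome 3 were flanked by CATG on both sides. In *Col25a1*, 2361 NlaIII fragments had their middle in the gene and 689 of them held GATC, which may share 1 base with a flanking CATG. The 516 scored fragments were all among the 689, and the reason why the others carry no score was not tested. The scored fragments had a median length of 315 bases, from 33 to 1399, covered 40.9% of the gene and left no stretch longer than 6.646 kb between neighbours. Of these fragments 42 overlapped an exon and 474 were intronic.

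The sequences of a few short fragments among the highest in *Col25a1* are shown, because single fragments carried much of the score in kidney from Leaf. Longer ones, such as the highest of whisker pad from the promoter with 617 bases, are not shown. They come from the plus strand of GRCm38 and include the CATG at each end. Capitals mark CATG and GATC.
Second highest fragment of the whisker pad library from the *Lef1* promoter, chr3:130388048-130388292: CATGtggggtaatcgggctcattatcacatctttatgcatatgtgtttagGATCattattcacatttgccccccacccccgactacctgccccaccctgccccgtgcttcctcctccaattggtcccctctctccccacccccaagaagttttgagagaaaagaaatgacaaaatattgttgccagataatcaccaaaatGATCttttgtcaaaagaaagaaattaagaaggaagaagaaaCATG
Highest fragment of the kidney library from the *Lef1* promoter, chr3:130408544-130408747: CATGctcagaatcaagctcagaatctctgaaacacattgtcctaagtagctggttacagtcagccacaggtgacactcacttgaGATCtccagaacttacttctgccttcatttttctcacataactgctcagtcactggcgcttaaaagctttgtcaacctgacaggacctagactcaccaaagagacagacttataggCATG
Highest fragment of the whisker pad library from Leaf, chr3:130573898-130574007: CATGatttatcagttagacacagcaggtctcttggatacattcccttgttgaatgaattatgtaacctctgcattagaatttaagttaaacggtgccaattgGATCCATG
Highest fragment of the kidney library from Leaf, chr3:130536711-130536781: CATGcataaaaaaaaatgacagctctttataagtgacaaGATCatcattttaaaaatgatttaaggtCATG
Second highest fragment of the kidney library from Leaf, chr3:130232805-130232956: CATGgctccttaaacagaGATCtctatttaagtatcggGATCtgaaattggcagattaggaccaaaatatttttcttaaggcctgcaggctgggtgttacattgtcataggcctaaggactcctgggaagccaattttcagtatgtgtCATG

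The start of the protein-coding transcripts is shown because the fragment that holds it was among the highest from the *Lef1* promoter in whisker pad. The RefSeq promoter sequence (GRCm38.p6) has 18 CpG, a GC content of 60.4%, and 0 sites of either enzyme, searched as GATC and CATG, which read the same on both strands. Of 32851 RefSeq promoters of the same length, 41.9% held GATC and 53.9% held CATG, and the median GC content was 52.4%.
*Col25a1* promoter, chr3:130180595-130180844, plus strand: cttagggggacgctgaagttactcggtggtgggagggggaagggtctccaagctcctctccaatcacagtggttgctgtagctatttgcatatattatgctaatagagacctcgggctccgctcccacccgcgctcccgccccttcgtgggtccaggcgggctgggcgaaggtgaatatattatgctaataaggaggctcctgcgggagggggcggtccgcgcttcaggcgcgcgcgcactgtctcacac

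The 4 libraries had similar summed raw scores over the genome, from 787783 to 854206, but distributed them differently. Chromosome 3 took 38.0% of the summed score in whisker pad and 13.9% in kidney from the *Lef1* promoter, and 27.5% and 12.2% from Leaf. Each library was therefore divided by its mean raw score over chromosome 3 fragments within 1 Mb of the viewpoint, which was 101 in whisker pad and 21.3 in kidney from the promoter, and 65.0 and 16.5 from Leaf. A normalized score of 1 is that mean. On chromosome 3 farther than 5 Mb from the promoter viewpoint, 0.699% to 2.75% of fragments were above 0. The mean normalized score there was 0.00671 in whisker pad and 0.0226 in kidney from the promoter, and 0.00925 and 0.0268 from Leaf. The number of reads behind a score is unknown, and intervals for shares are 95% Wilson intervals over fragments, which cover counting error only and treat neighbouring fragments as independent.

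Contacts were scored in *Col25a1* in all 4 libraries, but sparsely and less often than the locus as a whole. From the *Lef1* promoter, 224 of 516 fragments were above 0 in whisker pad, or 43.4% (39.2 to 47.7), against 59.5% of all fragments within 1 Mb. In kidney, 62 fragments were above 0, or 12.02% (9.49 to 15.1), against 29.1% within 1 Mb. From Leaf, 100 fragments were above 0 in whisker pad, or 19.4% (16.2 to 23.0), against 37.1%. In kidney, 29 were above 0, or 5.62% (3.94 to 7.95), against 14%. In each library the share in the gene lay below the share of all fragments within 1 Mb. These include the gene itself and the fragments next to the viewpoint.

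The mean normalized score of *Col25a1* lay in a narrow range in the 4 libraries. It was 0.165 in whisker pad and 0.158 in kidney from the *Lef1* promoter, and 0.193 and 0.210 from Leaf. The gene held 25.7% of the fragments within 1 Mb of the promoter viewpoint and 4.23% of their score in whisker pad and 4.07% in kidney. From Leaf it held 25.9% of the fragments and 5.003% and 5.43% of the score.

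Libraries with few fragments above 0 had higher scores on those fragments. The median score of fragments above 0 was 0.238 in whisker pad and 0.895 in kidney from the promoter, and 0.593 and 1.25 from Leaf. The highest fragment reached 3.16, 5.81, 8.91 and 24.6 in the same order. To reach 50% of the summed score of the gene took 36 fragments in whisker pad and 13 in kidney from the promoter, 17 in whisker pad from Leaf and 4 in kidney from Leaf. The kidney library from Leaf thus rested on very few fragments, the highest alone holding 22.7% of its score in the gene and the top 3 holding 47.6%.

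**Figure D1:**
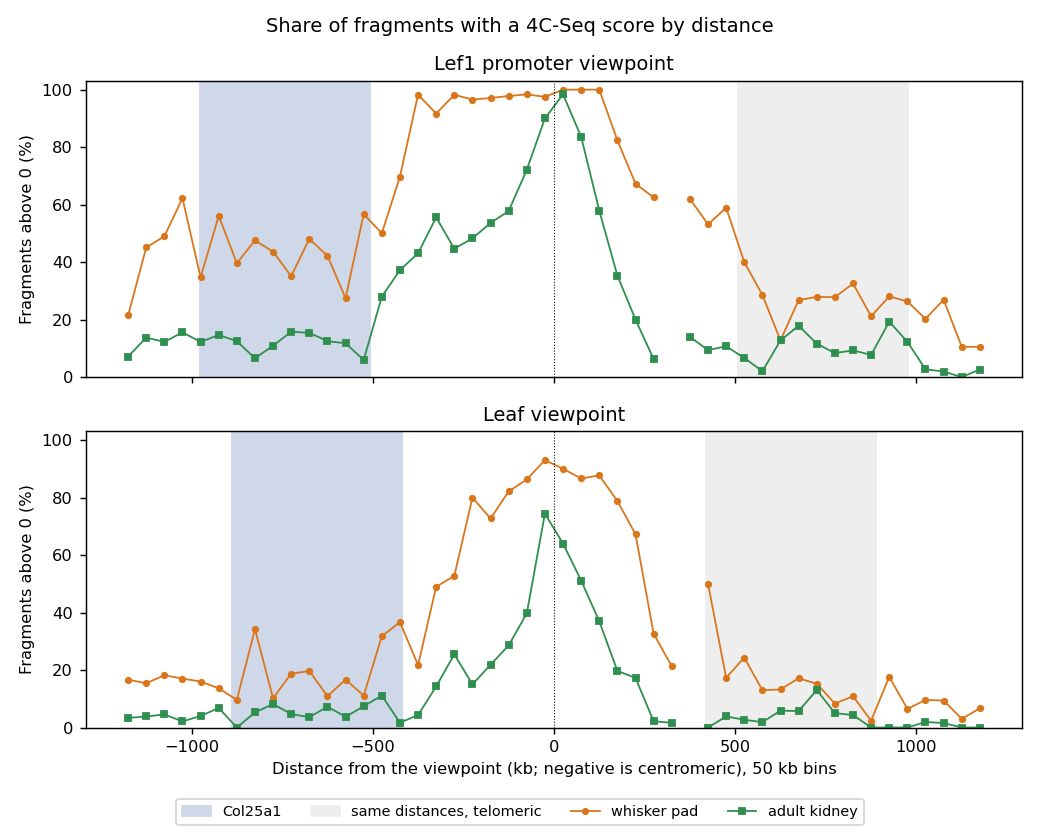
Share of fragments above 0 (%, y axis) in bins of 50 kb by distance from the viewpoint (kb, x axis, negative values centromeric) for whisker pad (orange circles) and adult kidney (green squares), with *Col25a1* shaded blue and the telomeric stretch at the same distances shaded grey. Bins with under 5 fragments have no point, and the shares over *Col25a1* are low and uneven in each library. In whisker pad from Leaf they are 36.7% in the bin centred at -425 kb, which holds the near end of the gene. They fall to 11.1% at -525 kb and reach 34.2% at -825 kb, also in the gene.

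Contacts fell in part before *Col25a1* was reached and in part around or inside its near end, depending on the library. In the 100 kb from the start of *Ostc*, a subunit gene of the oligosaccharyltransferase complex, toward *Lef1*, whisker pad had 92.0% of 100 fragments above 0 from the promoter and kidney 43.0%, and 59.0% and 21.0% from Leaf. In the 96.034 kb between *Ostc* and the near end of *Col25a1*, these shares were 58.0%, 30.7%, 29.5% and 5.68% of 88 fragments. The mean normalized score fell there too, from 1.62 to 0.269 in whisker pad and from 0.957 to 0.339 in kidney from the promoter, and from 1.14 to 0.283 and from 0.819 to 0.103 from Leaf. Between *Ostc* and *Col25a1* the whisker pad share from the promoter was 66.7% at 50 to 100 kb from the gene and 50.9% in the 50 kb next to it. In kidney from the promoter, the share was 30.7% (22.0 to 41.0) between *Ostc* and *Col25a1* and 12.02% (9.49 to 15.1) over the whole gene, with intervals apart. The place of this fall was not resolved. In the 50 kb on each side of the near end, the shares were 26.4% (16.4 to 39.6) outside and 11.6% (5.99 to 21.2) inside, with overlapping intervals. In whisker pad from Leaf, the nearest 50 kb of the gene had 37.7% above 0, no lower than the 29.5% outside it, and the share fell inside the gene.

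Just beyond the far end of the gene, detection was much as inside it, and farther out it was lower in places. In the 100 kb centromeric to *Col25a1*, 52.7% (42.6 to 62.5) of 93 fragments were above 0 in whisker pad from the promoter and 11.8% in kidney, and 15.1% and 4.30% from Leaf. Each of these shares has an interval that overlaps that of the gene. The mean scores there were 0.282, 0.0684, 0.194 and 0.363. From the promoter in whisker pad, the share was 25.5% (15.3 to 39.5) at 200 to 250 kb beyond the gene, 43.1% (32.3 to 54.6) at 300 to 350 kb and 21.7% (13.1 to 33.6) at 500 to 550 kb. From Leaf in whisker pad, it was 3.33% (0.919 to 11.4) at 500 to 550 kb, an interval that lies below that of the gene. At 550 to 600 kb the whisker pad shares were higher again, 46.9% (35.2 to 58.9) from the promoter and 15.6% (8.71 to 26.4) from Leaf.

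From the promoter, detection within *Col25a1* showed no steady fall from the near to the far end. The gene was cut into 10 bins of 50 kb counted from the telomeric end, the last being shorter, with 18 to 69 fragments each. From the promoter in whisker pad, the share above 0 was 56.5% in the nearest bin, 22.0% in the second, 42.9% in the third, and between 33.3% and 52.2% in the others, with 33.3% in the farthest bin. In kidney from the promoter it was 11.6% in the nearest bin, 6% in the second, 17.5% in the third and 16.7% in the farthest. The nearest and the farthest bin had overlapping intervals in both of these libraries.

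From Leaf, with bins counted from the telomeric end, the nearest bin stood out in whisker pad. There 37.7% (27.2 to 49.5) of 69 fragments were above 0, followed by 24% in the second bin and 11.1% in the third, and then 12.2%, 13.6%, 16.9%, 20%, 18.6%, 19.6% and 11.1% outward. The share thus fell over the first 150 kb of the gene and was not lower at 300 to 450 kb than at 100 to 250 kb. With bins counted from the viewpoint instead, 34.2% of 38 fragments were above 0 in the bin centred at -825 kb, toward the far end of the gene. In kidney from Leaf, counted again from the telomeric end, the share was 4.35% in the nearest bin, 12% in the second and 9.30% in the eighth. In the farthest bin 0 of 18 fragments were above 0, with an interval that reaches 17.6%.

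Of the 40 bins over the 4 libraries, 2 had an interval that lay apart from that of their whole gene. These were the second bin from the promoter in whisker pad, which was lower, and the nearest bin from Leaf in whisker pad, which was higher. Over the 10 bins, Spearman's rho between order from the near end and share was -0.15 in whisker pad and 0.31 in kidney from the promoter, and -0.32 and -0.44 from Leaf. These values describe bins of 1 library that share its depth.

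The mean normalized score of the bins was low throughout. From the promoter it was between 0.0503 (second bin) and 0.310 (ninth bin) in whisker pad, and between 0.0874 (ninth bin) and 0.239 (eighth bin) in kidney. From Leaf in whisker pad it was 0.425 in the nearest bin, 0.0790 in the third, 0.313 in the eighth and 0.0373 in the farthest. In kidney from Leaf it ranged from 0 in the farthest bin to 0.733 in the second, which dropped to 0.246 without its highest fragment.

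**Figure D2:**
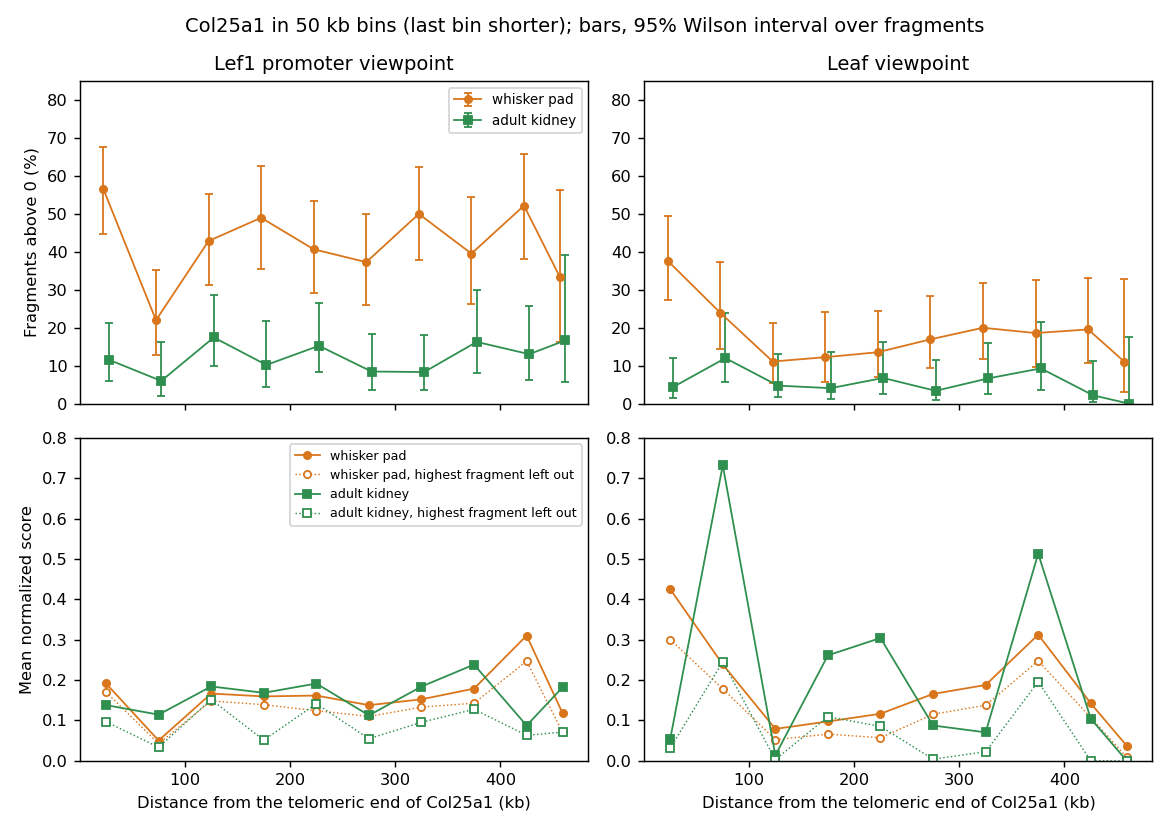
Share of fragments above 0 (%, top) and mean normalized score (bottom) in the 50 kb bins of *Col25a1* by distance from its telomeric end (kb), for whisker pad (orange) and kidney (green) from the *Lef1* promoter (left) and Leaf (right). Bars are 95% Wilson intervals over fragments, open symbols leave out the highest fragment of each bin, and the kidney bins from Leaf change most when that fragment is left out.

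The parts of *Col25a1* on either side of its middle were compared over more fragments, 273 in the near part and 243 in the far part. From the promoter in whisker pad, 40.7% of the near and 46.5% of the far fragments were above 0, a difference of -5.84 points (-14.3 to 2.70). In kidney the shares were 12.1% and 11.9%, a difference of 0.154 points (-5.60 to 5.77). From Leaf they were 20.9% and 17.7% in whisker pad, a difference of 3.18 points (-3.70 to 9.93), and 6.59% and 4.53% in kidney, a difference of 2.07 points (-2.08 to 6.16). All 4 intervals include 0, so that no difference between these parts was detectable at this number of fragments. As an alternative split, the nearest 100 kb were set against the farthest 100 kb, without intervals. The share differed by -4.65 points in whisker pad and -6.31 points in kidney from the promoter. From Leaf it differed by 13.0 points in whisker pad and 3.12 points in kidney. The ratios of mean scores were 0.529, 0.939, 1.88 and 2.34 in the same order.

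The mean score of the near part over that of the far part was 0.789 in whisker pad and 0.970 in kidney from the promoter, and 1.20 and 1.77 from Leaf. On log-log axes, a line with a slope of -1, the distance decay assumed by the profile correction, gives 1.38 and 1.45 for these distances. Between these parts, both libraries from the promoter and whisker pad from Leaf thus had a lower ratio than that line gives. In whisker pad from Leaf the ratio was 1.88 between the nearest and farthest 100 kb, for which the line was not worked out. The value of 1.77 in kidney from Leaf was 1.17 without the highest fragment and 0.999 with only fragments of at least 100 bases.

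The profile corrected score divides the normalized score by that line, fitted to fragments above 0 within 1 Mb, so that 1 is a fragment on the line. Its mean over *Col25a1* takes in the fragments at 0, which the fit leaves out, and so depends on the share above 0. It was 0.964 in whisker pad and 0.601 in kidney from the promoter, and 0.551 and 0.404 from Leaf. In whisker pad from the promoter it was 0.708 in the near part and 1.25 in the far part, and in kidney from the promoter 0.509 and 0.704. From Leaf it was 0.487 and 0.623 in whisker pad and 0.441 and 0.363 in kidney. It was thus larger in the far part in 3 of the 4 libraries. With the line fitted to means of 50 kb bins instead, the mean over the gene was 0.920 and 0.999 from the promoter and 0.999 and 1.14 from Leaf.

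*Col25a1* was compared with the telomeric stretch that spans the same distances from each viewpoint, which lies beyond *Lef1*. From Leaf, the near part of this stretch has few scored fragments. Its bin centred at 425 kb held 6, against 60 in the centromeric bin at -425 kb. The mean distance of the fragments was 660 kb in the stretch and 642 kb in the gene from Leaf, and 743 and 731 kb from the promoter. From the promoter in whisker pad, 26.3% (22.5 to 30.5) of 467 fragments of that stretch were above 0, against 43.4% in *Col25a1*, and the intervals did not overlap. In kidney the shares were 10.9% (8.40 to 14.1) and 12.02%. From Leaf, 14.3% (11.3 to 17.9) of 428 fragments were above 0 in whisker pad, against 19.4%, and 4.91% (3.23 to 7.38) in kidney, against 5.62%. Apart from whisker pad from the promoter, the intervals of gene and stretch overlapped.

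The mean normalized score of the telomeric stretch was 0.110 and 0.154 in whisker pad and kidney from the promoter and 0.177 and 0.412 from Leaf. On the log2 scale with a pseudocount of 0.01, *Col25a1* over that stretch was 0.55 and 0.04 from the promoter and 0.12 and -0.94 from Leaf. The value of -0.94 rests on 29 fragments above 0 in the gene and 21 in the stretch. The share above 0 there went the other way, with 5.62% in the gene and 4.91% in the stretch. The median fragment length was 275 bases in the stretch from the promoter and 291 from Leaf, shorter than the 315 of *Col25a1*. The part of length in the difference was not tested.

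Longer fragments of *Col25a1* were above 0 more often. The median length of fragments above 0 and at 0 was 374.5 and 269.5 bases in whisker pad from the promoter, 377 and 309 in kidney, 343.5 and 309.5 in whisker pad from Leaf, and 424 and 309 in kidney from Leaf. In whisker pad from the promoter, 16.7% of 48 fragments of up to 100 bases were above 0, and 55.7% of 131 fragments over 500 bases. GC content hardly differed, with medians between 41.4% and 42.1% for fragments above 0 and at 0. Exonic fragments were above 0 in 50% and intronic in 42.8% of cases in whisker pad from the promoter and in 31.0% and 18.4% from Leaf, and in kidney in 11.9% and 12.03% from the promoter and 7.14% and 5.49% from Leaf.

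Between tissues, the 2 libraries differed in how many fragments of *Col25a1* were above 0 and, with the scaling used here, hardly in the mean score. From the promoter the whisker pad share was 3.61 times that of kidney, against 2.04 times for all fragments within 1 Mb and 2.41 times in the telomeric stretch. From Leaf it was 3.45 times, against 2.66 and 2.90 times. The part of sequencing depth in these shares was not tested, as the numbers of reads are unknown. The log2 ratio of the mean normalized score, whisker pad over kidney, was 0.05 from the promoter and -0.11 from Leaf. Its sign depended on the scaling, since scaling to the mean of all chromosome 3 gave 0.79 and 0.60, and the mean within 1 Mb without the inner 100 kb gave -0.43 from the promoter.

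Fragment by fragment, the background was that of all fragments within 1 Mb, the gene included. The share of *Col25a1* above 0 in whisker pad only was near it from the promoter and below it from Leaf. From the promoter, 192 fragments (37.2%) were above 0 in whisker pad and at 0 in kidney, where the background within 1 Mb was 34.7%, and 30 (5.81%) were above 0 in kidney only, where it was 4.29%. From Leaf these were 91 (17.6%) with a background of 26.5%, and 20 (3.88%) with a background of 3.36%. Whisker pad had the higher score for 202 fragments (39.1%, background 46.2%) from the promoter and 94 (18.2%, background 30.6%) from Leaf. Kidney had it for 52 (10.1%, background 17.6%) and 26 (5.04%, background 9.89%).

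The tissues shared fewer fragments in *Col25a1* than in all of the stretch within 1 Mb, the gene included. From the promoter 32 fragments (6.20%, background 24.9%) were above 0 in both, which is 14.3% of those above 0 in whisker pad and 51.6% of those above 0 in kidney, against 41.8% and 85.3% within 1 Mb, and kidney had the higher score in 22 of them. From Leaf they were 9 (1.74%, background 10.6%), or 9% and 31.0% against 28.6% and 75.9%, and kidney had the higher score in 6. For comparison, 43.4% of all *Col25a1* fragments were above 0 in whisker pad from the promoter and 19.4% from Leaf, and 12.02% and 5.62% in kidney.

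The viewpoints also shared fewer fragments in *Col25a1* than within 1 Mb, where more fragments were above 0. In whisker pad, 52 fragments were above 0 from both, which is 23.2% of those from the promoter and 52.0% of those from Leaf. These are near the shares of all *Col25a1* fragments above 0, 19.4% from Leaf and 43.4% from the promoter. Within 1 Mb the shared parts were 52.5% and 85.7%. In kidney 2 fragments were above 0 from both, 3.23% and 6.90%, against 30.7% and 63.3% within 1 Mb. Of all *Col25a1* fragments in kidney, 5.62% were above 0 from Leaf and 12.02% from the promoter. Over all 4 libraries, 212 fragments were at 0 in each, 208 were above 0 in 1 library, 82 in 2, 13 in 3 and 1 in 4. That 1 fragment, named after its values were seen, is an intronic fragment of 569 bases at chr3:130273726-130274294, with scores of 0.0428 in whisker pad and 1.5 in kidney from the promoter and 0.0737 and 0.000605 from Leaf.

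**Figure D3:**
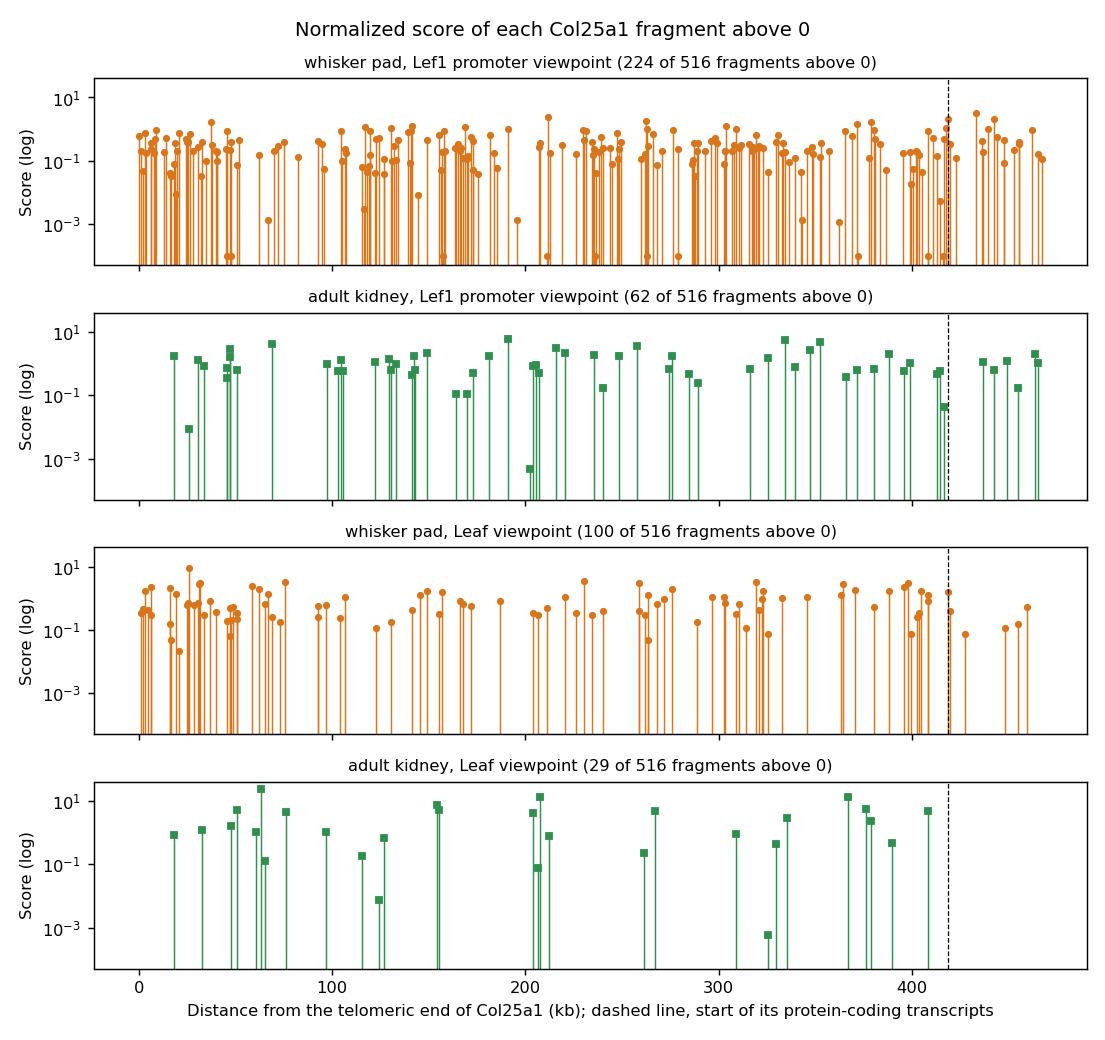
Normalized score (log axis) of each *Col25a1* fragment above 0 by distance from the telomeric end of the gene (kb), with 1 panel for each library and a dashed line at the start of the protein-coding transcripts. Whisker pad from the promoter has 224 fragments spread over the gene with scores of up to 3.16, and kidney from Leaf has 29 with scores of up to 24.6.

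The highest fragments differed between the libraries, but some lay close together. The second highest of whisker pad from the promoter and the third of kidney from Leaf lay 212 and 208 kb from the telomeric end. In whisker pad from the promoter, the highest was an intronic fragment of 617 bases at chr3:130166324-130166940, 14.3 kb upstream of the coding transcripts, with 3.16 and with 0 in the other 3 libraries. The second, of 237 bases and shown among the sequences, had 2.34 and was also at 0 in the other 3. The third, of 1211 bases at chr3:130180362-130181572, holds the start of the protein-coding transcripts and the whole promoter sequence shown.

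That start fragment had a high score from both viewpoints in whisker pad. It had 2.13 in whisker pad from the promoter and 1.60 in whisker pad from Leaf, and it was at 0 in both kidney libraries. It ranked 3 of 516 from the promoter and 23 from Leaf. It is also one of the longest fragments, with 6 DpnII sites, 74 CpG and a GC content of 59.5%. Among the 14 fragments of at least 1000 bases, whisker pad had 9 above 0 from the promoter and 6 from Leaf, and kidney had 1 and 3.

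The surroundings of the coding start did not stand apart from the gene in detection. Within 15 kb of it, a window chosen after its values were seen, whisker pad had 56.5% (36.8 to 74.4) of 23 fragments above 0 from the promoter and kidney 13.0% (4.54 to 32.1), and 26.1% (12.55 to 46.5) and 4.35% (0.772 to 21.0) from Leaf. These intervals hold the shares of the whole gene. The mean scores there were 0.386 and 0.0476 from the promoter and 0.254 and 0.209 from Leaf.

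In kidney from the promoter, the 3 highest fragments were intronic and scored 5.81, 5.41 and 4.90. Each was also above 0 in whisker pad from the promoter, with 1.05, 0.189 and 0.134, and at 0 from Leaf in both tissues. They lay 191, 335 and 352 kb from the telomeric end of the gene. The first of them, of 196 bases, is shown among the sequences with its single GATC.

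In whisker pad from Leaf, the highest fragment was the one of 102 bases shown above, 25.9 kb from the telomeric end, with a score of 8.91. It was at 0 in whisker pad from the promoter and in kidney from Leaf, and had 0.00844 in kidney from the promoter. It held 8.94% of the score of the gene in its library and lies in the nearest bin, whose mean was 0.425 with it and 0.301 without it. The next fragments scored 3.57, at 231 kb from the telomeric end, and 3.21, at 75.7 kb.

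In kidney from Leaf, the highest fragment was only 63 bases long and scored 24.6, and the second, of 144 bases, scored 13.8. Both are shown among the sequences, and both were at 0 in the other 3 libraries. The third, at chr3:130392071-130392494, scored 13.0 and had 0.356 in whisker pad from the promoter. No fragment was among the top 3 of more than 1 library.

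Among its neighbours, *Col25a1* had the most fragments and was low in the order from the promoter. There were 10 other protein-coding genes that overlap the stretch within 1 Mb of a viewpoint, and 9 of them had at least 10 fragments. Ranked with these 9 by the share above 0, *Col25a1* was 9 of 10 in whisker pad and 8 in kidney from the promoter, and 7 and 4 from Leaf. By mean score it was 9 and 8 from the promoter and 5 and 5 from Leaf. *Lef1* itself had 100% and 88.1% of its fragments above 0 from the promoter and 83.4% and 30.3% from Leaf.

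The neighbours on each side of *Col25a1* differed from it in places. *Sec24b*, a coat protein gene of vesicle transport and the next of these genes on the centromeric side, had 43.9% and 14.6% of 82 fragments above 0 from the promoter, nearly as in *Col25a1*, and 15.9% and 1.22% from Leaf. *Etnppl*, which encodes a phospholyase of phosphoethanolamine and lies between *Col25a1* and *Ostc*, had 54.2% and 37.5% of 24 fragments above 0 from the promoter and 29.2% and 4.17% from Leaf.

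Both genes whose mean scores over the 4 libraries were most like those of *Col25a1* lay on the other side of *Lef1*, and the next was *Ostc*. The measure was the root mean square difference of log2 (mean normalized score + 0.01) over the 4 libraries. It was 0.752 for *Papss1*, an enzyme gene of sulfate activation, with mean scores of 0.209 and 0.0961 from the promoter and 0.0877 and 0.366 from Leaf. It was 0.823 for *Sgms2*, a sphingomyelin synthase gene, with 0.347 and 0.203 and with 0.244 and 0.493. For *Ostc* it was 1.40, with 0.416 and 0.223 and with 0.719 and 0.0626. The order depends on the sparse kidney library from Leaf. There *Sec24b* (2.10) and *Etnppl* (2.29) had means of 0.00230 and 0.000630, with 1.22% and 4.17% of fragments above 0. Elsewhere *Sec24b* was close to *Col25a1*. It had 0.221 and 0.194 from the promoter and 0.158 in whisker pad from Leaf, against 0.165, 0.158 and 0.193.

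**Figure D4:**
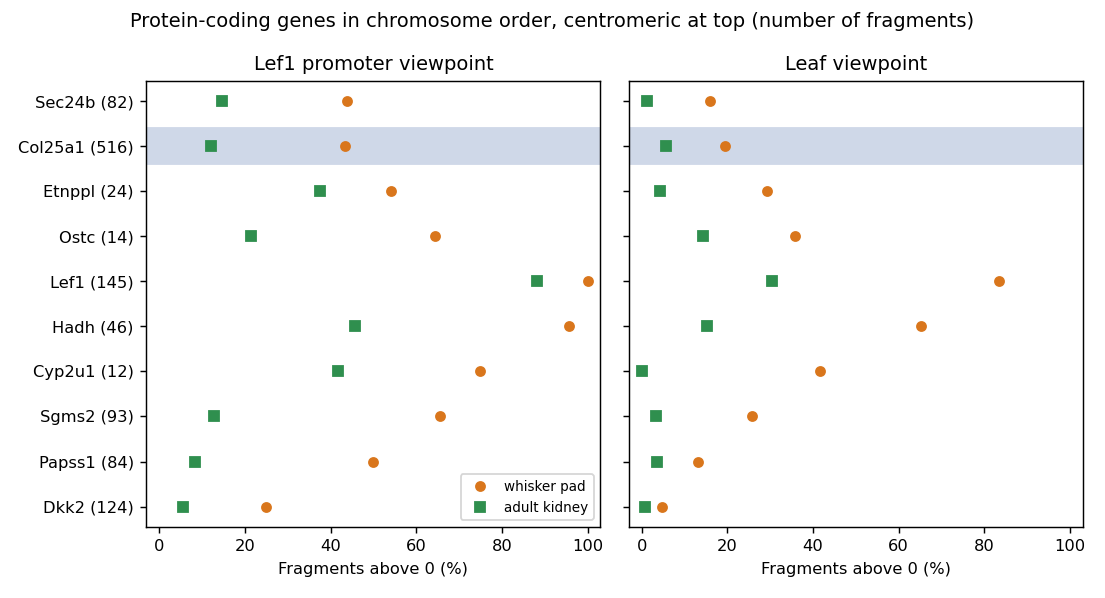
Share of fragments above 0 (%) of *Col25a1* (shaded) and of the 9 neighbouring protein-coding genes with at least 10 fragments, in chromosome order with the number of fragments in brackets, for whisker pad (orange circles) and kidney (green squares). From the promoter (left) *Col25a1* is at 43.4% and 12.02%, and *Lef1* at 100% and 88.1%.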

How the data were processed

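The 4 libraries were made from whisker pad and kidney cells digested with NlaIII and DpnII. The authors demultiplexed the reads, aligned them to mm10 (Bowtie2 in the submitters' processing notes) and computed fragment scores with the HTSstation pipeline. The deposited signal was a raw and a smoothed score per fragment and library, with the scaling before the raw score not given in the sources used here. Per-sample columns left unused numbered 0.

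Raw scores were divided by their mean over chromosome 3 fragments within 1 Mb of the viewpoint, outside the region that the methods exclude. A fragment belonged to *Col25a1* by its midpoint. With 1 library per group, no test was run. The named items were *Col25a1*, its 50 kb bins, the 3 highest fragments of each library and the 3 neighbouring genes most like it. The members, lists and measures were chosen with earlier results of these data known. Intervals of differences were Newcombe intervals. Alternatives changed the scaling, smoothing, fragments, pseudocount (0.1 for 0.01), split, bins and fitted line. The calculations were tested on simulated data. The tools were scipy 1.17.1, pandas 2.3.3 and numpy 2.4.6 under Python 3.11.15, with figures drawn in matplotlib 3.10.9.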

Additional observations from a re-analysis of the deposited data

Results flagged for a closer look

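The ratio of mean normalized scores between tissues over *Col25a1* had opposite signs at the 2 viewpoints. On the log2 scale, whisker pad over kidney was 0.054 from the *Lef1* promoter and -0.114 from Leaf, with 1 library per tissue and viewpoint. The difference between the viewpoints was not tested.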

How the results depend on the processing

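Of 128 alternatives over 34 values of *Col25a1*, 94 left the value within its limits, 24 moved it and 10 reversed its direction, and the cause was not tested. Limits were the Wilson or Newcombe interval for shares and 1.5 times for other values. In the order whisker pad and kidney from the promoter, then whisker pad and kidney from Leaf, the mean normalized score was 7.06, 4.07, 7.48 and 4.94 when scaled to all of chromosome 3, and 0.294, 0.400, 0.377 and 0.464 without the inner 100 kb. Scaled to the median above 0, it was 0.0964 in kidney from the promoter and 0.0526 from Leaf. The share above 0 in whisker pad from the promoter was 37.2% with a raw score of at least 5 and 53.4% with fragments of at least 300 bases, both chosen after seeing the data. The ratio of near to far part in kidney from the promoter was 1.00 with smoothed scores and 1.09 with equal numbers of fragments in both parts. It was 1.88 between the nearest and farthest 100 kb in whisker pad from Leaf, and, in kidney from Leaf, 1.17 without the highest fragment and 0.999 with fragments of at least 100 bases. The share differed between these outer 100 kb by -6.31 points in kidney from the promoter and 13.0 points in whisker pad from Leaf. With the line fitted to bin means, the profile corrected score was 0.999 in kidney from the promoter, 0.999 in whisker pad from Leaf and 1.14 in kidney from Leaf. With bins of 100 kb, the share ranged over 7.89 and 5.04 points from the promoter and 6.20 points in kidney from Leaf, where the highest bin mean was 0.339. The log2 ratio of the tissues from the promoter was 0.79 scaled to chromosome 3, 1.06 to the median above 0, -0.43 without the inner 100 kb and -0.046 with fragments of at least 100 bases. From Leaf it was 0.60 scaled to chromosome 3, 1.22 to the median above 0, 0.25 with fragments of at least 100 bases and 0.11 without the highest fragment. No paired analysis was possible because each tissue and viewpoint had 1 library. The unknown number of reads limits what a score of 0 can show.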
